A study of Mus musculus with 18 samples.

Results

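Kidney RNA was examined for 9 genes of vascular smooth muscle and pericytes, of 78239 genes listed in the files: Pln, Plac9, Kcne5, Myh11, Acta2, Tagln, Cnn1, Des, and Rgs5. Each symbol matched 1 Ensembl gene. Pln, Plac9, and Kcne5 had been selected for low counts in LP females, and the other 6 are widely used markers. The female values of the 3 selected genes are therefore given as a description, with no test.

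Vascular smooth muscle cells wrap arteries and arterioles and set the resistance of the renal circulation by contracting. Calcium entry and release activate myosin light chain kinase, and myosin then pulls on actin filaments that carry calponin and transgelin. Pericytes sit on capillaries, share part of this machinery, and are marked by Rgs5 and Pdgfrb. In bulk kidney RNA these cells are a small minority, so fewer such cells and less RNA per cell cannot be told apart.

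Wild-type outbred CD-1 mice were born to dams fed a low-protein diet (LP, 8% protein) or a normal-protein diet (NP, 18% protein) through gestation and lactation, and all offspring ate the 18% diet after weaning. At 6 wk, left kidneys were taken from 10 males (5 LP and 5 NP) and 8 females (5 LP and 3 NP), 1 library per mouse. Every mouse, controls included, had received cationic ferritin, an iron-storage protein that labels glomeruli, as 2 injections. Males were killed 90 min and females 24 h after the last injection, so that sex and time of collection cannot be told apart. Litters are not given in the labels, and p-values measure the spread between these mice.

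Depth lay between 14050486 and 23562411 reads counted on genes. LP female 1, LP female 2, and NP female 3 separated from the other 15 libraries at the first split of a clustering of 12665 genes. Their 8 interferon genes summed to 125, 170, and 87.7 CPM (counts scaled to library depth), against 599.9 CPM or more in every other library. Their 6 glucocorticoid genes summed to 409.1, 408.6, and 569.9 CPM, against 649.4 CPM or more. NP female 3 also had the highest mitochondrial share, 16.5% of counts, and the highest share of reads not counted on a gene, 36.1%. Some results are also given without these 3 libraries, and the others rest on all libraries compared. Known kidney cell types were present. The summed CPM of 6 proximal tubule genes were 6933 or more in every library, and those of 5 podocyte genes were 150.3 or more. The 6 marker genes summed to between 50.4 and 235 CPM. A list of 12 heart and skeletal muscle genes summed to between 0.355 and 4.77 CPM, with Myh4 at 0 in every library and 9 of the 12 genes under 1 CPM throughout.

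How the reads were counted decided how much of Pln and Tagln was seen. The unstranded column, used for the counts here unless stated, leaves out a read that falls in exons of genes on opposite strands. Pln encodes phospholamban, a small membrane protein that restrains the calcium pump of the sarcoplasmic reticulum. It lies at chr10:53199622-53223512 (GRCm39, plus strand), and 45.9% of its 6163 exonic bases are shared with other genes, mainly the antisense lncRNA Gm47644. Tagln encodes transgelin, an actin-binding protein of smooth muscle. It lies at chr9:45840909-45847404 (minus strand), and 66.7% of its 2044 exonic bases are shared, mainly with the antisense lncRNA Gm48529. All 156 coding bases of Pln and all 603 of Tagln fall inside annotated exons of these lncRNAs. The coding exon that holds each start codon is printed to show the stretch from which no read could be counted without strand, 5′ to 3′ on the gene's own strand in GRCm39, with the start codon in capitals. Pln is at chr10:53219960-53220115 and Tagln at chr9:45842880-45843059.
Pln: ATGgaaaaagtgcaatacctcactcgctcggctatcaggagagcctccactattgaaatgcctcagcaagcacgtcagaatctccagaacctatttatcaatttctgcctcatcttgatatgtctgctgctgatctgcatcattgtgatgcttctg
Tagln: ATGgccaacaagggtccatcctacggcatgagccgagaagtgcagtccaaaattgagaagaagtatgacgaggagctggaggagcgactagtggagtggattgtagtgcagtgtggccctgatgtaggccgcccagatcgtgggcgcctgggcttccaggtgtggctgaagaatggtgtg

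The files also hold counts for each strand, and the sum of these columns keeps the shared reads. Over the 18 libraries Tagln had 105 reads in the unstranded column and 13752 in the summed strand columns, so the unstranded column held 0.764% of them. Pln had 277 and 792 reads, or 35.0%. For the other 7 genes the unstranded column held between 99.7% and 100% of the summed reads. In the gene models used here, Plac9, Acta2, Cnn1, and Des also share between 5.60% and 35.1% of their exonic bases with an opposite-strand neighbour. These models are from a later release than the counts, and whether the counting release held these overlaps was not checked. Among 13763 protein-coding genes with a mean of at least 10 summed reads, 227 (1.65%) kept under 10% of them in the unstranded column. The libraries were not directional, so a read in a shared exon cannot be assigned to the gene or to its antisense neighbour. Gm48529 had 383 reads in the unstranded column, outside the shared exons.

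**Figure D1:**
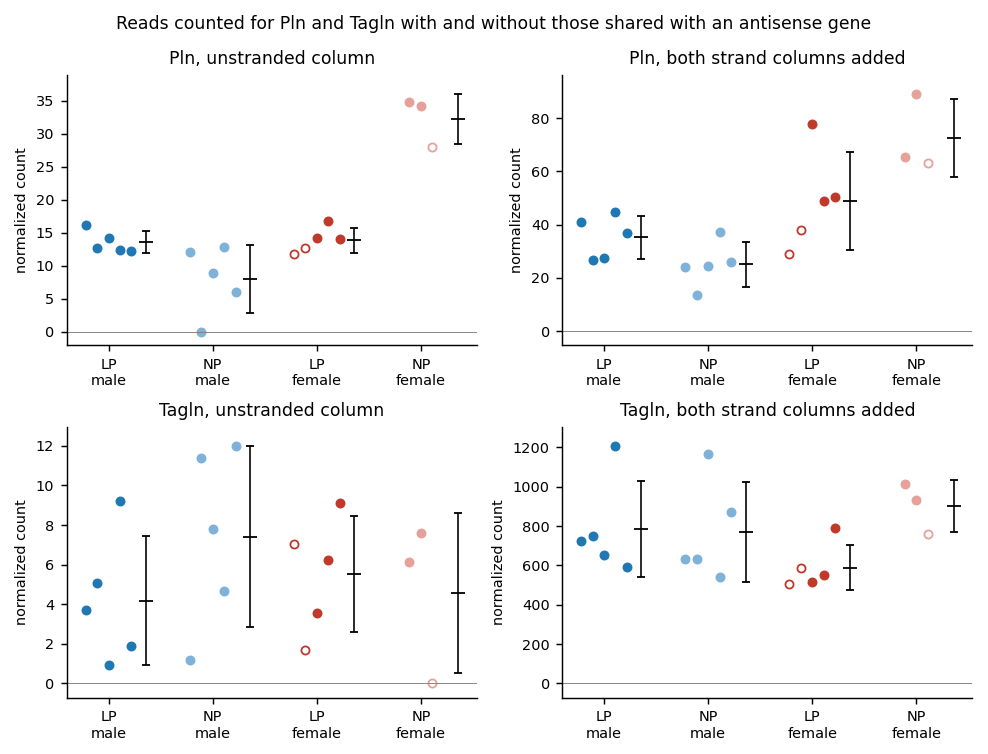
Normalized counts of Pln (top) and Tagln (bottom) in each library, from the unstranded column (left) and from both strand columns added (right). Points are libraries, open where they stand apart from the rest, and bars are means with SD. For Tagln the scale changes from at most 12.003 to between 505 and 1207, and for Pln the gap between LP and NP females on the left closes on the right, where LP female 3 reaches 78.0.

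Levels were set side by side as reads per kilobase of exon scaled to library depth (RPKM), using the merged exons of each gene in the later release. In the unstranded column Acta2, smooth muscle actin, had the highest mean at 12.6 ± 5.23 (SD, n = 18), and exceeded Rgs5 in all 18 libraries. Rgs5, a regulator of G-protein signalling in pericytes, followed at 6.51 ± 2.23. Myh11, the smooth muscle myosin heavy chain, stood at 4.26 ± 2.68 and was below Rgs5 in 16 of 18. Des, the intermediate filament desmin, stood at 2.52 ± 0.905. Kcne5 (2.24 ± 2.65), a potassium channel subunit, and Plac9 (1.72 ± 0.790), a small secreted protein, changed places from library to library, Kcne5 being higher in 8 of 18. Cnn1, calponin 1, stood at 1.21 ± 1.14. Tagln (0.158 ± 0.103) and Pln (0.146 ± 0.0908) came last and did not differ beyond their spread. With the strand columns summed, Tagln had the highest level of the 9, 21.3 ± 6.34, above Acta2 in all 18 libraries, and Pln remained last at 0.408 ± 0.211.

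Pln was followed first in females, where it had been selected. Its normalized counts (reads divided by a library size factor) were 11.7, 12.6, 14.2, 16.7, and 14.04 in LP females and 34.7, 34.2, and 27.9 in NP females. The groups did not overlap, which selection for low LP counts favours, and the LP mean was 0.429 of the NP mean. In the unstranded column these are 15 to 20 reads in each LP female and 23 to 36 in each NP female. With the strand columns summed, LP females held 28.9, 37.8, 78.0, 49.0, and 50.5, and NP females 65.4, 89.2, and 63.1. LP female 3 then lay above 2 of the 3 NP females, and the LP mean was 0.673 of the NP mean. The log2 fold change of LP against NP females was -1.22 in the unstranded column and -0.59 with the strand columns summed.

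Pln is best known from heart muscle, and markers of that tissue were examined beside it. Tnnt2, cardiac troponin T, was at 0.961 to 1.87 CPM in NP females and 0.101 to 0.467 CPM in LP females, on 16 to 27 and 2 to 11 reads. Tnni3, cardiac troponin I, was at 0.360 to 1.80 CPM in NP females and 0.0424 to 0.253 CPM in LP females. Both were named after their values were seen. Myh6, a cardiac myosin heavy chain and also among the more abundant genes of the list, overlapped, at 0.661 to 1.11 CPM in NP females and 0.424 to 1.49 CPM in LP females. The other 9 genes had at most 8 reads in any female. The 12-gene heart and skeletal muscle list summed to 2.46 to 4.77 CPM in NP females and 0.846 to 2.04 CPM in LP females, ranges that did not overlap. This sum includes Tnnt2 and Tnni3 and is not separate from them. Among 13510 single genes tested in females, 1.21% had every LP female below every NP female by normalized counts. The part of this list in the Pln difference was not tested.

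In males, whose values played no part in the selection, Pln normalized counts were 16.2, 12.7, 14.2, 12.3, and 12.3 in LP males and 12.1, 0, 8.91, 12.8, and 6.002 in NP males. LP males were thus higher on average, with 1 NP male inside their range, and the mean difference on log2(normalized count + 1) was 1.13 (exact two-sided permutation test, p = 0.0397, 5 against 5, smallest possible p 0.00794). The test was run on 9 genes in males, and this was the lowest p. NP male 2 had 0 reads, and without it the difference was 0.45 (exact permutation p = 0.0397, 5 against 4). Without any 1 LP male the exact permutation p was 0.119 to 0.167, with a difference of 1.07 to 1.16. With the strand columns summed the values were 41.0, 26.6, 27.5, 44.6, and 36.8 in LP males and 24.2, 13.5, 24.5, 37.4, and 26.0 in NP males, and the difference was 0.51 (exact permutation p = 0.0556). Across all genes, edgeR's quasi-likelihood test gave this strand-summed difference an adjusted p of 1.00.

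Plac9 (chr14:25886804-25903634, minus strand) was chosen on the same comparison. Normalized counts were 74.2, 58.0, 80.6, 63.6, and 73.7 in LP females and 185, 111, and 183 in NP females, an LP mean 0.438 of the NP mean. The LP females lay within a narrow range, with an SD of 9.08 around 70.0. In males the values were 55.9, 145, 47.4, 108, and 50.0 for LP and 71.3, 90.2, 101, 81.8, and 152 for NP. Those groups overlapped, and the log2 fold change was -0.29 ± 0.33 (SE; edgeR adjusted p = 1.00). RefSeq places a copy of this gene, Plac9b, on the same chromosome in the previous build, with much the same sequence before its start. Whether GRCm39, to which the reads were aligned, holds this copy was not checked. Reads that map to more than 1 place were not counted, so the Plac9 level is uncertain if it does.

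Kcne5 (chrX:141087748-141089290, minus strand) showed a further split between the sexes. Its normalized counts were 99.2, 58.8, 50.5, 85.5, and 58.2 in LP females and 222, 129, and 199 in NP females, an LP mean 0.385 of the NP mean. Males held 4.97, 8.87, 13.3, 13.9, and 18.9 in LP and 15.7, 12.4, 11.1, 15.2, and 9.002 in NP. Every female thus lay above every male, and the female mean was 9.14 times the male mean. Of 12665 genes with 10 or more counts in every library, 2.39% had every female above every male. Kcne5 is not among these genes, as some males had under 10 counts, so this share is not its background. Its female values had also taken part in its selection. LP and NP males overlapped, with a difference of -0.17 on log2(normalized count + 1) (exact permutation p = 0.659, 5 against 5). These are 4 to 20 reads in each male, so a smaller diet difference was not detectable at this depth.

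**Figure D2:**
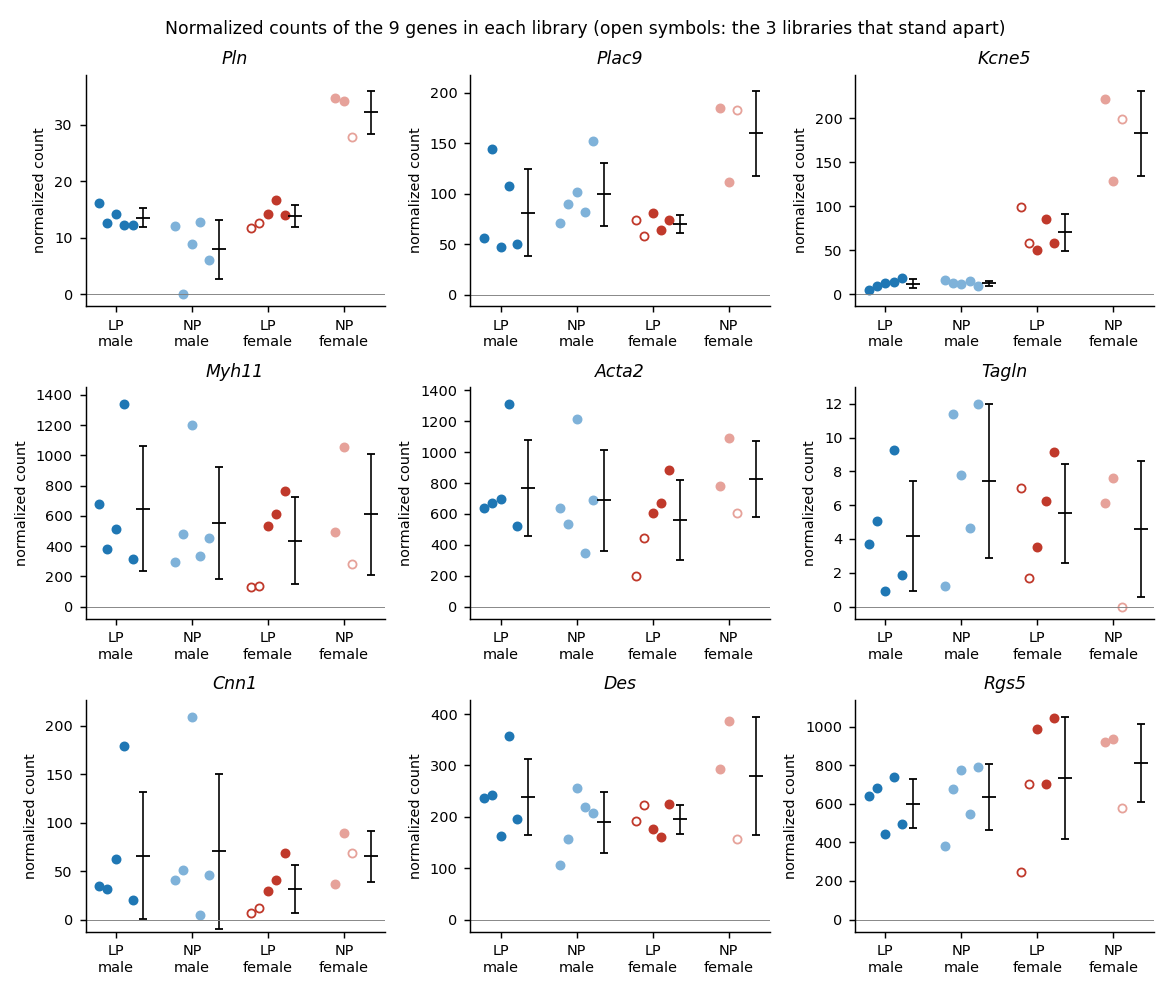
Normalized counts of the 9 genes in the unstranded column, by group. Points are libraries, open where they stand apart from the rest, and bars are means with SD for 5, 5, 5, and 3 mice. LP females lie below NP females without overlap for Pln, Plac9, and Kcne5, which were selected for low counts in LP females. LP and NP overlap in each sex for the other 6.

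The selected and unselected members can be set side by side in the female groups. For the 3 selected genes, all 5 LP females lay below every NP female, as did 164 of 13510 genes tested in females (1.21%). Cnn1 had 3 of 5 LP females below every NP female, Myh11 and Acta2 2 of 5, Rgs5 1 of 5, and Des 0 of 5. Tagln had 0 of 5 in the unstranded column and 4 of 5 with the strand columns summed. Over all 8 females the log2 fold change of LP against NP was -1.18 for Plac9 and -1.37 for Kcne5. Without the 3 libraries that stand apart it was -1.21 for Pln, -1.03 for Plac9, and -1.45 for Kcne5.

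For the 6 markers the question was whether maternal diet changed the vascular smooth muscle signal of the offspring kidney. No difference between LP and NP passed the edgeR test across all genes in either sex. In males 0 of the 5 members tested (Plac9, Myh11, Acta2, Des, and Rgs5) were called by edgeR at an adjusted p under 0.05, where 5 of 13181 genes were called (0.0379%). None of the 5 had an unadjusted p under 0.05, and DESeq2 and limma-voom also called 0 of them. In females 0 of the 4 unselected members tested (Myh11, Acta2, Des, and Rgs5) were called, where 0 of 13510 genes were called (0%), with 564 at an unadjusted p under 0.05, 9 called by DESeq2, and 0 by limma-voom. None of the 4 had an unadjusted p under 0.05, and both other tools called 0 of them. Cnn1 and Tagln in both sexes, and Pln and Kcne5 in males, had under 10 counts in at least 1 library and were examined by the exact permutation test.

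Myh11 (chr16:14012399-14109236, minus strand) varied more between mice of 1 group than between groups. Normalized counts were 681, 383, 515, 1341, and 312 in LP males and 295, 483, 1200.1, 332, and 456 in NP males. LP females held 129.7, 135, 533, 613, and 761, and NP females 493, 1053, and 280.2. A single high mouse in each male group, LP male 4 and NP male 3, exceeded all others of its group. The log2 fold change was 0.24 ± 0.44 (SE) in males and -0.50 ± 0.64 in females (adjusted p = 1.00 and 0.921, edgeR). Without LP male 4 the male value was -0.22, and without NP female 2 the female value was 0.18. Without the 3 libraries that stand apart the female value was -0.28 ± 0.31 (edgeR adjusted p = 0.972).

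Acta2 (chr19:34217737-34232990, minus strand) followed the same mice. LP males held 641, 673, 696, 1314, and 525 normalized counts and NP males 638, 538, 1218, 349, and 693. LP females held 199, 444, 609, 668, and 884, and NP females 779, 1092, and 606. The log2 fold change was 0.18 ± 0.31 (SE) in males and -0.56 ± 0.40 in females (adjusted p = 1.00 and 0.886). The female difference was -0.38 ± 0.22 without the 3 libraries that stand apart. Without LP male 4 the male value was -0.11.

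Cnn1 (chr9:22010512-22020926, plus strand) was the most variable of the 9 genes but Kcne5, with a coefficient of variation of 95.8% over the 18 libraries. LP males held 34.8, 31.7, 62.5, 179, and 19.8 normalized counts and NP males 41.1, 50.8, 209, 4.67, and 46.0. LP females held 6.25, 11.8, 29.2, 40.7, and 68.8, and NP females 36.8, 89.2, and 69.1. The mean difference on log2(normalized count + 1) was 0.24 in males and -1.36 in females (exact permutation p = 0.881 and 0.161). The smallest p that 5 against 3 allows is 0.0179. LP female 1 and LP female 2 held the lowest female values, 6.25 and 11.8. Without the 3 libraries that stand apart, the means were 46.2 in LP and 63.0 in NP females. The edgeR log2 fold change there was -0.44 ± 0.49 (SE; adjusted p = 0.972).

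Tagln could be compared with the strand columns summed, a choice made after its counts were seen. LP males held 722, 752, 653, 1207, and 594 normalized counts and NP males 631, 633, 1168, 542, and 870.2. LP females held 505, 589, 513, 549.5, and 788, and NP females 1013, 932, and 758. The NP females lay above 4 of the 5 LP females, and LP female 5 lay above NP female 3. Without the 3 libraries that stand apart, 3 LP females held 513 to 788 and 2 NP females 932 to 1013, without a test. The log2 fold change in females was -0.63 ± 0.18 (SE; edgeR p = 0.00668, adjusted p = 0.821; exact permutation p = 0.0357), and it did not pass the adjustment. With each library left out in turn the exact permutation p lay between 0.0286 and 0.0952. In males it was 0.04 ± 0.23 (adjusted p = 1.00). In the unstranded column, on 0 to 13 reads per library, the exact permutation p was 0.554 in females and 0.302 in males.

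Des (chr1:75320511-75345223, plus strand) leaned in opposite directions in the sexes. LP males held 236, 242, 162, 358, and 196 normalized counts and NP males 106, 157, 256, 218, and 208. LP females held 191, 223, 177, 161, and 225, and NP females 294, 387, and 158. The log2 fold change was 0.35 ± 0.25 (SE) in males and -0.52 ± 0.28 in females (adjusted p = 1.00 and 0.886). The difference between these effects was -0.87 ± 0.39 (unadjusted p = 0.0399, adjusted p = 0.977), and 2 of 12665 genes passed that test (0.0158%), none of the 4 unselected members among them. Without the 3 libraries that stand apart, 3 LP females lay at 177, 161, and 225 and 2 NP females at 294 and 387. The female value there was -0.86 ± 0.22 (adjusted p = 0.972). Without NP female 2 alone the female value was -0.19, and the male value was 0.15 without LP male 4 and 0.20 without NP male 1.

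Rgs5 (chr1:169483036-169524887, plus strand) had the lowest coefficient of variation of the 9 in the unstranded column, 31.3% over the 18 libraries; Tagln with the strand columns summed had 28.9%. LP males held 642, 681, 444, 740.3, and 497 normalized counts and NP males 381, 677, 773, 547, and 793. LP females held 244, 701, 986, 702, and 1045, and NP females 922, 937, and 581. The log2 fold change was -0.07 ± 0.20 (SE) in males and -0.14 ± 0.40 in females (adjusted p = 1.00 and 0.957). LP female 1 was the lowest of all 18, and without it the female value was 0.08.

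**Figure D3:**
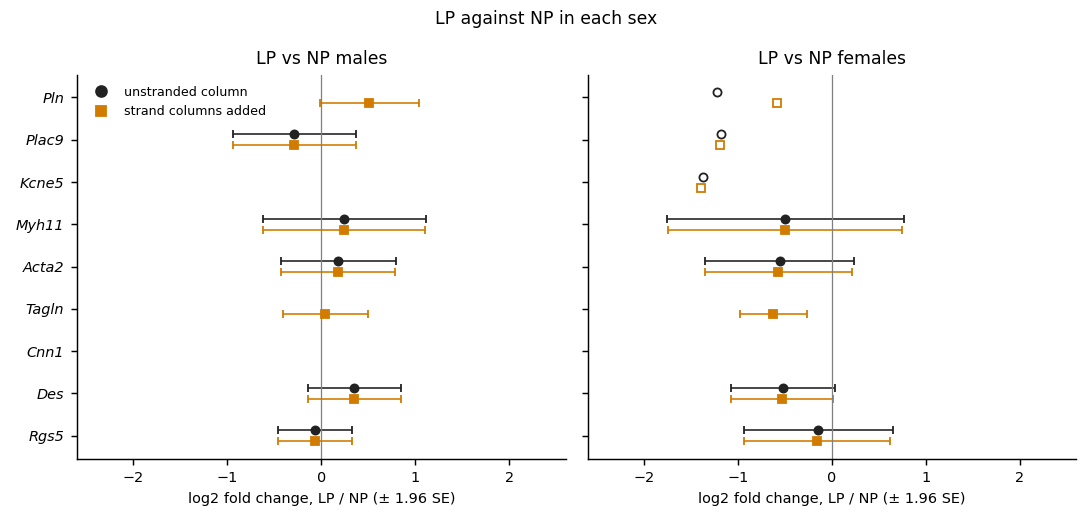
Log2 fold change of LP against NP in males (left) and females (right), from the unstranded column (circles) and from the strand columns summed (squares), with bars of 1.96 SE. Open symbols without bars are the 3 genes selected on this comparison, and a gene with under 10 counts in a library has no point. For the 5 markers plotted (Cnn1 has no point) the bars cross 0 in both sexes, apart from Tagln in females at -0.63, which did not pass the adjustment over all genes.

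The surrounding pathway was read from 4 lists with 56 genes in all. In males 42 of the 56 genes were tested, and 0 were called by edgeR, DESeq2, or limma-voom, with 3 at an unadjusted p under 0.05. Over all 13181 genes 506 (3.84%) were under that unadjusted p, and DESeq2 called 19 and limma-voom 6. The 42 list genes had a median log2 fold change of 0.15 in males, against -0.00 over all genes tested. By list the median was 0.12 for contractile, 0.16 for calcium and channel, 0.28 for pericyte, and 0.04 for regulator genes. Of the 3 at an unadjusted p under 0.05, 2 were pericyte genes and 1 a regulator. In females 42 were tested and 0 were called by any of these tools, with 3 at an unadjusted p under 0.05 (4.17% of all genes) and a median of -0.02 against -0.01. The most abundant contractile genes per kilobase were Csrp1, a LIM protein (27.8 RPKM), and Myl9, the regulatory light chain of smooth muscle myosin (13.95 RPKM). Their log2 fold changes in females were -0.12 ± 0.23 (SE) and -0.52 ± 0.18 (adjusted p = 0.942 and 0.886). Atp2a2, the calcium pump that phospholamban restrains, stood at 32.2 RPKM, with a log2 fold change of 0.05 ± 0.09 in males and 0.12 ± 0.32 in females. Itpr1, the calcium release channel, stood at 16.5 RPKM, with 0.14 ± 0.16 and 0.28 ± 0.30. Of the pericyte genes, Mcam (4.43 RPKM) and Pdgfrb (3.98 RPKM) had values of 0.44 ± 0.20 and 0.44 ± 0.15 in males, and -0.13 ± 0.50 and 0.24 ± 0.39 in females. Of the regulators, Srf (6.70 RPKM), the factor that binds CArG boxes, had -0.04 ± 0.13 and 0.27 ± 0.16, and Klf4 (2.66 RPKM) had -0.21 ± 0.16 and -0.16 ± 0.42. Myocd, which encodes the cofactor myocardin, was under 1 CPM in every library. None of these passed the test, with adjusted p of 0.886 or more in both sexes.

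The sexes were then compared over both diets, where 4900 of 12665 genes were called (38.7%). None of the 4 unselected members tested was among them. The log2 difference of females against males was 0.32 ± 0.22 (SE) for Rgs5, 0.14 ± 0.20 for Des, -0.10 ± 0.27 for Acta2, and -0.22 ± 0.41 for Myh11 (adjusted p between 0.268 and 0.807). Rgs5 depended on the libraries that stand apart. Without those 3 it was higher in females, at 0.58 ± 0.16 (adjusted p = 0.0114), and without LP female 1 alone the value was 0.44. The signs of Myh11 and Acta2 turned with LP male 4, with NP male 3, and with the 3 libraries that stand apart.

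Of the 56 genes on the vascular lists, 40 were tested between the sexes, 5 rose in females, and 2 fell, or 17.5% called against 38.7% of all genes. In the contractile list, Ppp1r14a, an inhibitor of myosin phosphatase, was higher in females by 1.10 ± 0.32 (SE, log2; adjusted p = 0.0114), and Smtn, smoothelin, by 0.47 ± 0.14 (adjusted p = 0.0130). Mylk, myosin light chain kinase, fell by 1.11 on the log2 scale (SE 0.18, adjusted p = 0.000138). Among the calcium and channel genes, Kcnq1, a potassium channel pore that is also used by epithelia, was higher by 0.81 ± 0.11 (adjusted p = 1.55e-05). Gucy1b1, a subunit of the nitric oxide receptor guanylate cyclase, was higher by 0.78 ± 0.30 (adjusted p = 0.0451), and Ryr2, a calcium release channel, fell by 0.99 on the log2 scale (SE 0.22, adjusted p = 0.00194). Of the pericyte genes Gja4, connexin 37, was higher by 0.65 ± 0.23 (adjusted p = 0.0329). Most of the genes that rose did not follow the mean of the markers between libraries. The correlation (r) with that mean was -0.43 for Ppp1r14a, -0.36 for Smtn, and -0.29 for Gja4. It was -0.03 for Kcnq1 and 0.29 for Gucy1b1. For the genes that fell, r was 0.59 (Mylk) and 0.50 (Ryr2). The cell type behind these sex differences was not tested. All 5 podocyte genes were also higher in females, and the podocyte sum was 251 to 529 CPM in females and 150.3 to 257 CPM in males.

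Single mice differed more than the groups did. After the mean of each group was removed, the 6 markers were compared over the 18 libraries. All 15 pairs among them had a positive Pearson's r on log2(CPM + 1), from 0.27 to 0.88 with a median of 0.54. With p-values from 100000 permutations of libraries within groups, adjusted over all 36 pairs of the 9 genes, 5 pairs passed. The closest were Acta2 with Cnn1 (r = 0.88, Spearman's rho = 0.80, permutation p = 7.00e-05, adjusted p = 0.00126) and Acta2 with Myh11 (r = 0.87, rho = 0.82, permutation p = 6.00e-05, adjusted p = 0.00126). Myh11 with Cnn1 had r = 0.80 (rho = 0.82, adjusted p = 0.00300). Rgs5 followed Acta2 at r = 0.74 (rho = 0.75, adjusted p = 0.0306) and Myh11 at r = 0.69 (rho = 0.75, adjusted p = 0.0254). All values in a library share its depth and composition. Without the 2 libraries farthest from the median of the first gene, r was 0.88 for Acta2 with Cnn1, 0.80 for Myh11 with Acta2, 0.70 for Myh11 with Cnn1, 0.59 for Acta2 with Rgs5, and 0.68 for Myh11 with Rgs5. In the 10 males and the 8 females apart, r was 0.97 and 0.82 for Acta2 with Cnn1, and 0.86 and 0.87 for Myh11 with Acta2. In the 15 libraries left without those that stand apart, r was 0.97 for Acta2 with Cnn1 and 0.87 for Myh11 with Acta2.

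Tagln depended on whether its shared reads were counted. In the unstranded column none of its pairs passed, and with the strand columns summed it had r = 0.76 with Acta2, 0.74 with Cnn1, 0.72 with Des, 0.65 with Myh11, and 0.56 with Rgs5, all at adjusted p of 0.0425 or less. By rank, its pairs with Acta2, Des, and Rgs5 passed (rho = 0.70, 0.73, and 0.71), while those with Myh11 (rho = 0.56, adjusted p = 0.0770) and Cnn1 (rho = 0.44, adjusted p = 0.181) did not. Without the 2 libraries farthest from the median of the first gene, r was 0.81 with Acta2, 0.61 with Des, 0.56 with Rgs5, 0.44 with Cnn1, and 0.43 with Myh11. In females alone r was 0.26 with Cnn1 and 0.37 with Myh11, against 0.88 and 0.90 in males. The number of pairs that passed among the 6 markers was then 11 of 15. Des remained apart from Cnn1 (r = 0.27, adjusted p = 0.406).

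No pair of a selected gene with a marker passed. Of these 18 pairs 9 were positive, with r from -0.64 to 0.49, and the 3 pairs among the selected genes had r from -0.28 to -0.02. The most negative value was Kcne5 with Rgs5 (r = -0.64, rho = -0.55, adjusted p = 0.0746), which passed with CPM scaled by TMM (r = -0.66, adjusted p = 0.0334). With the strand columns summed, Pln had r = 0.52 with Myh11 and 0.52 with Rgs5 (adjusted p = 0.138 and 0.171). In the 8 females alone the strand-summed Pln had r = 0.76 with Myh11, 0.72 with Acta2, and 0.77 with Rgs5, and in the 10 males 0.22, 0.04, and 0.13, all without a test. Pln had at most 36 reads per library in the unstranded column, and the cell type behind the reads of the 3 selected genes was not tested.

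**Figure D4:**
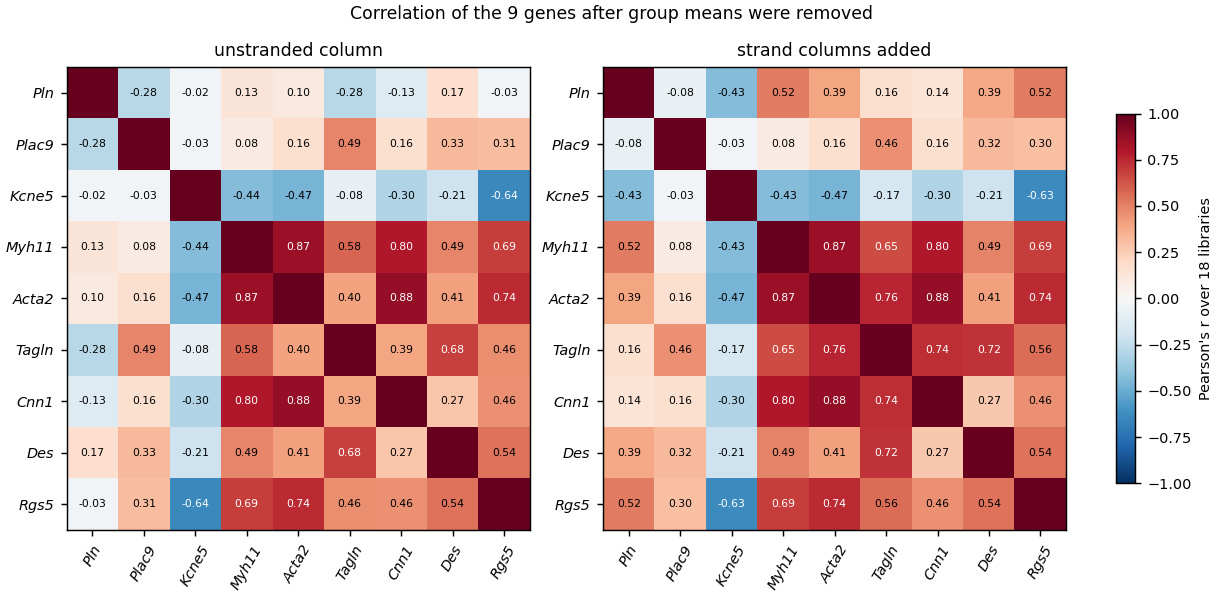
Pearson's r between each pair of the 9 genes over 18 libraries, after the mean of each group was removed, from the unstranded column (left) and from the strand columns summed (right). Red is positive and blue negative. The block of Myh11, Acta2, Cnn1, and Rgs5 is red on both sides, the Tagln row deepens on the right to values between 0.56 and 0.76 within the markers, and the Kcne5 row is blue against them.

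Some mice stood high or low for most markers, here with the strand columns summed. In LP male 4, NP male 3, LP female 5, and NP female 2, all 6 markers lay above their group mean, with Cnn1 up by 1.59 and 1.75 on the log2 scale in the first pair and Myh11 up by 1.09 and 1.02 in the second. In LP male 5 and NP male 1, 0 of the 6 lay above. In LP female 1 and NP female 3, 1 of 6 did. Correlations in the unstranded column were also taken without LP male 4 and NP male 3, left out after their values were seen. There, 2 pairs passed: Acta2 with Cnn1 (r = 0.80) and Acta2 with Myh11 (r = 0.79, adjusted permutation p = 0.0220 for both). By rank 0 pairs passed, against 5 in all 18 libraries. Of the 15 marker pairs 14 were still positive, with a median r of 0.49.

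**Figure D5:**
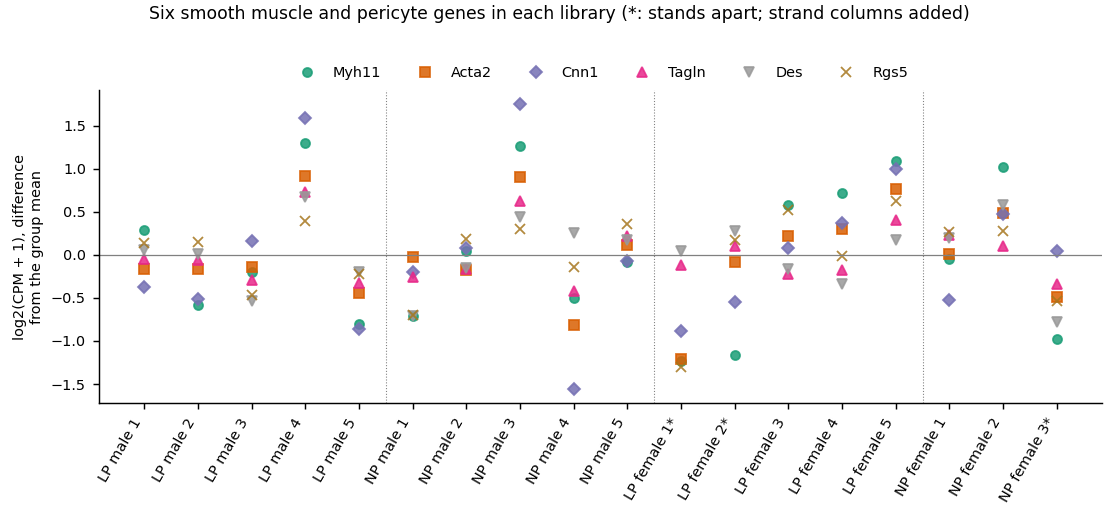
Difference of each of the 6 markers from its group mean, as log2(CPM + 1) with the strand columns summed, in each library. Each symbol is 1 gene, and asterisks mark the libraries that stand apart. In LP male 4, NP male 3, LP female 5, and NP female 2 all 6 symbols lie above 0.

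Genes of other cell types moved with these mice. In LP male 4 and NP male 3 the 6-gene urothelium list summed to 61.5 and 104 CPM, above the other males of their groups (at most 38.9 CPM in each), and the 8-gene fibroblast list summed to 293 and 178 CPM, against at most 232 and 116 CPM. In NP female 2 the urothelium and fibroblast sums were 54.9 and 319 CPM, and in LP female 5 they were 23.98 and 239.6 CPM, each the highest of its group. Most lists examined were highest of the group in NP female 2, among 3 mice, including proximal tubule (11666.5 CPM against at most 7739). The endothelial list was highest of its group in LP male 4 (560 CPM against at most 500) and NP female 2 (766 against 609). It lay inside the group in NP male 3 and LP female 5. The 6-gene adipocyte list summed to 84.5 CPM in LP male 4, 43.5 CPM in NP male 3, and 241 CPM in LP female 5, each the highest of its group, and to 35.3 CPM in NP female 2, where NP female 3 had 96.6 CPM. The heart and skeletal muscle list was also highest of its group in LP male 4 (2.62 CPM against at most 0.641) and NP male 3 (2.25 against at most 0.772), and lowest in NP female 2 (2.46 CPM). The 6 medullary tubule genes went both ways: NP male 3 had 2179 CPM, below the 3318 CPM or more of the other NP males, LP female 5 had 6944 CPM, above the 6298 CPM or less of the other LP females, and LP male 4 and NP female 2 lay inside their groups. The interferon list reached 3039 CPM in LP female 5 and 3174 CPM in NP female 2, against 1327 and 1759 CPM at most in the others of their groups. The sources differ on the tissue extracted, which was part of a kidney by the protocol and a whole one by the design text. The part of these other cells in the marker levels of these mice was not tested.

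The genes whose pattern was most like the mean of the 6 markers were ranked among 12660 others over the 18 libraries. The first 10 were Ccdc80 (r = 0.90), Fbln1 (0.90), Rcn2 (0.88), Cdh13 (0.87), Pcp4l1 (0.87), Plcb4 (0.87), Art3 (0.86), Col6a2 (0.85), Tnfaip1 (0.85), and Msrb3 (0.85). Fbln1 encodes fibulin 1 and Col6a2 a chain of collagen VI, both of the extracellular matrix, and Fbln1 is also on the fibroblast list. Without LP male 4 and NP male 3 their r lay between 0.82 and 0.90.

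The sequence before the start site was read where it was given, for 7 of the 9 genes, in the RefSeq table of GRCm38.p6; Myh11 and Tagln had no entry. A CArG box, the site bound by the Srf protein, was searched on both strands, allowing 1 G or C among its 6 middle bases. It was found in Acta2, beginning 84 and 34 bases before the start site, and not in Pln, Plac9 (both copies), Kcne5, Cnn1, Des, or Rgs5. Of all 32851 promoters, 8.59% held such a match in the same 250 bases, and 1.47% held the exact form. Acta2 and Cnn1 are printed as the pair that moved together most closely, with the matches in capitals, 5′ to 3′ on the gene's strand: Acta2 at chr19:34255374-34255623 (minus) and Cnn1 at chr9:22099003-22099252 (plus).
Acta2: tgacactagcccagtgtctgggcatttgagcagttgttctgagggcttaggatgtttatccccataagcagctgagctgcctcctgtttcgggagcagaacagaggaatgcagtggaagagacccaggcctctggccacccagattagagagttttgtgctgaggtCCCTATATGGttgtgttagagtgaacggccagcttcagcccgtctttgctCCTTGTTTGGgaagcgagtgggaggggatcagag
Cnn1: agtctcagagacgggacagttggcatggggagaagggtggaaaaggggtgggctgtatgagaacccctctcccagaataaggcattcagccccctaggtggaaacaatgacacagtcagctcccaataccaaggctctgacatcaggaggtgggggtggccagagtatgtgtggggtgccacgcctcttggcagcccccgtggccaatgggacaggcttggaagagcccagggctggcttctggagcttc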

How the data were processed

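Total RNA from the left kidney (a piece by the protocol, the whole organ by the design text) was sequenced as poly(A), non-directional libraries. The authors removed samples of low RNA integrity, trimmed adapters, and aligned reads to GRCm39 with STAR, which wrote the deposited counts per gene, without normalization, in an unstranded column and a column for each strand. STAR's version is not given in the sources used here. Reads that map to more than 1 place or to exons of several genes are in no gene's count. Gene models came from the GENCODE annotation of GRCm39, in a later release than the counts, and 71 of 78239 listed genes had no model.

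The members and gene lists were chosen with earlier results of these data known. A gene entered a comparison where each of its libraries had 10 or more counts, and was tested with edgeR 4.0.16 (TMM, quasi-likelihood, Benjamini-Hochberg over all genes tested). Normalized counts were counts divided by DESeq2 1.42.0 size factors. Single genes were tested by exact two-sided permutation on log2(normalized count + 1). Depth was 14050486 to 23562411 counts. The fits were also run on simulated counts with the same dispersion for every gene. That setting is simpler than these data, and no result here rests on it. All 9 members were named, with the 2 genes of highest RPKM on each vascular list, the list genes that passed a test, and the 10 genes most like the marker mean. Alternatives were other filters, DESeq2, limma-voom (limma 3.58.1), a replicate block, and each replicate left out; the summed strand columns and the sets without 2 or 3 libraries were chosen after seeing the data.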

Additional observations from a re-analysis of the deposited data

Results flagged for a closer look

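Of 27 sets of 1 gene in 1 group of 5 mice, 4 held a mouse far from the rest by Dixon's criterion. The criterion was applied to normalized counts without a log scale. Chance meets it in about 1 of 20 sets only where values are normally distributed and the sets are independent. Normality was not checked, and Myh11, Acta2, and Cnn1 varied together, so the 4 are not set against that rate. Myh11 stood at 1200.1 normalized counts in NP male 3, where the next NP male had 483. Acta2 stood at 1314 in LP male 4, where the next LP male had 696. Cnn1 stood at 179 in LP male 4 and 209 in NP male 3, where the next mice of their groups had 62.5 and 50.8. All 4 values belong to the same 2 mice.

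The strand columns, which the counts without strand leave aside, held 792 reads on Pln and 13752 on Tagln over all libraries.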

How the results depend on the processing

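Between the sexes, 1 unselected member (Rgs5) passed with limma-voom, without LP female 1, and without the 3 libraries that stand apart, against 0 otherwise; leaving out each replicate gave 0 to 1. Of the correlated pairs, 11 passed with the strand columns summed and 2 without LP male 4 and NP male 3, against 5. With limma-voom the log2 value turned to -0.021 for Myh11 between diets in males and 0.13 for Acta2 between sexes. Without the 3 libraries that stand apart it turned to 0.024 for the Rgs5 diet by sex difference, and between sexes to 0.24 for Myh11 and 0.18 for Acta2. Without LP male 4 and NP male 3 it turned to 0.25 for Myh11 and 0.20 for Acta2 between sexes. The cause was not tested. Leaving out each replicate gave, between diets in males, -0.22 to 0.74 for Myh11, -0.11 to 0.49 for Acta2, and -0.20 to 0.027 for Rgs5. In females it gave -0.83 to 0.18 for Myh11 and -0.34 to 0.081 for Rgs5. It gave -0.28 to 0.13 for the Rgs5 diet by sex difference. Between sexes it gave -0.55 to 0.041 for Myh11, -0.22 to 0.069 for Acta2, and -0.011 to 0.29 for Des, and 5 to 9 list genes passed. The low counts of Pln, Kcne5, Cnn1, and unstranded Tagln limit what could be detected, as do 3 NP females.

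Residuals of same-numbered LP and NP mice correlated at -0.30 to 0.33 in males and -0.61 to -0.39 in females. With 5 and 3 such pairs, these values cannot decide whether replicate numbers pair the samples. With a replicate block, 2 genes were called between diets in males against 5, 0 in females, 0 against 2 for the diet by sex difference, and 4203 against 4900 between sexes, and 0 members in each.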
